A study of Homo sapiens with 7 samples.

Results

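Mucins are the heavily glycosylated proteins of mucus, and trefoil factors are small secreted peptides that accompany them. The 10 genes described here are MUC1, MUC2, MUC4, MUC5AC, MUC5B, MUC13, MUC17, TFF1, TFF2 and TFF3, named as a fixed list out of 20037 protein-coding genes. Binding of the transcription factor Myc at these genes was read from 1 list of 47016 peaks on the nuclear chromosomes. A peak was counted for a gene when its summit, the base with the strongest signal, lay inside the RefSeq span of the gene or within 20 kb of it. By this rule, 35 of the 47016 summits belonged to the 10 genes.

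The cells were HT29, a long-established human line derived from a colon adenocarcinoma, sublines of which can be grown to secrete mucus. All libraries, per the labels, came from cells kept in serum-free medium that contained the fatty acid oleic acid for 6 h. Myc was mapped by CUT&RUN, in which an antibody guides a nuclease to its target in permeabilised cells and the released DNA is sequenced. By their titles 3 libraries were made for Myc, 3 for IgG and 1 was an input. Since the labels list the Myc antibody for the IgG libraries too, the grouping rests on the titles alone. Cells without oleic acid were not analysed here, so the values describe binding after the fatty acid and not a change caused by it. Peaks show where Myc was found and not how strongly a gene was expressed, so the identity of the cells could not be checked from them.

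Gel-forming mucins such as MUC2, MUC5AC and MUC5B are secreted and make up the mucus gel, MUC2 being the main mucin of the colon and MUC5AC that of the stomach surface. Membrane-bound mucins such as MUC1, MUC4, MUC13 and MUC17 stay at the apical cell surface, where they form the glycocalyx and can signal through their cytoplasmic tails. Myc binds DNA as a dimer with MAX, preferably at the E-box CACGTG, and is found at the starts of many active genes.

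Of the 10 genes, 9 had at least 1 Myc summit in the gene or within 20 kb, and TFF3 had none. The same held for 79.7% of all protein-coding genes, and for 82.5% of those whose length lay within the range of the 10 genes, so a count of 9 was near the background. Each peak carries a fold enrichment, the authors' ratio of Myc signal to the local control level at the summit. The ratio is read with 1 added to both, so it is lower than the plain ratio of fragments to control level. Intervals given with it are exact Poisson 95% intervals of the number of fragments over the summit (the pileup), and they cover counting error only. The list gives 1 value per peak, under peak names that begin with myc, and how the Myc libraries were joined was not given. No spread between replicates can therefore be stated, and no difference was tested.

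Folds of the 35 summits ran from 2.66 to 14.0, with a median of 4.33, beside a median of 4.11 for all peaks. Of them, 18 lay above that median and 17 below it. Pileups ranged from 16 to 90 fragments with a median of 28, near the median of 29 over all peaks. The control level, the number of fragments expected from the control, ranged from 5.09 to 9.17. The value 5.09, shared by several of the 35 summits, was also the lowest over all 47016 peaks.

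**Figure D1:**
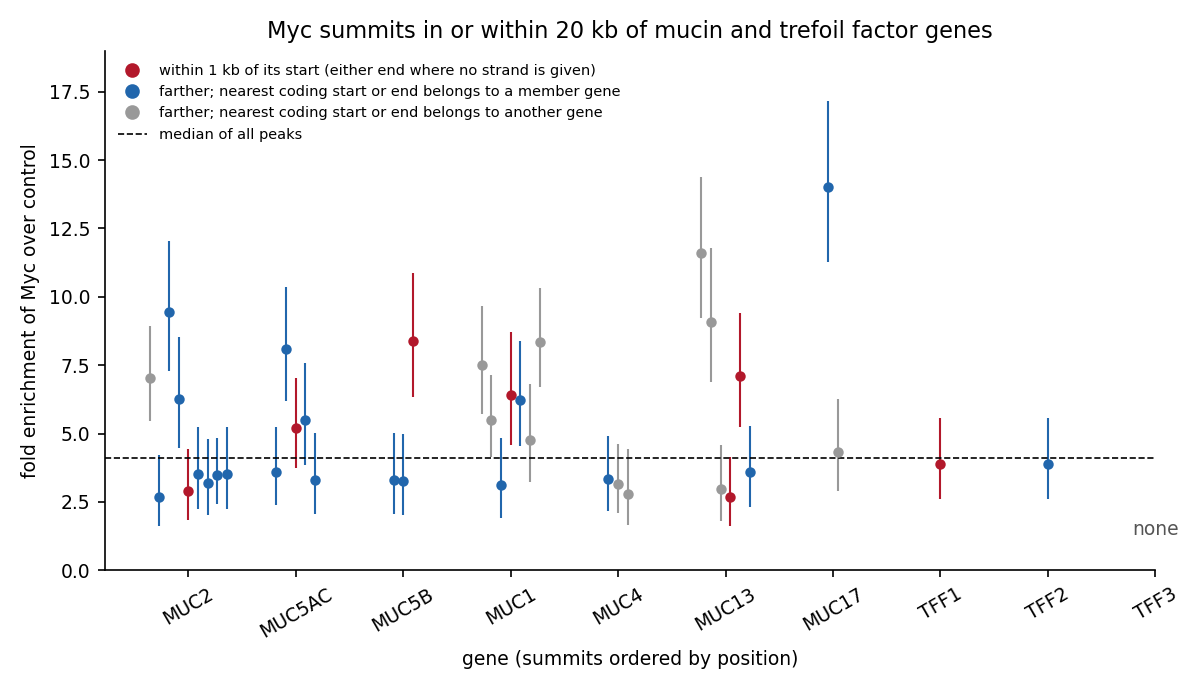
Fold enrichment (vertical axis, linear) of each Myc summit in or within 20 kb of the 10 genes, with its Poisson 95% interval; summits are ordered by position within a gene, and colours give the nearest coding start or end. MUC17 holds the highest value, 14.0, TFF1 and TFF2 show the same summit at 3.88, and TFF3 has none.

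A narrower reading asked whether Myc lay at the start of the gene itself. A summit counted when it was within 1 kb of the transcription start, or of either end of the gene where the sequence table used here gives no strand. This was so for 6 of the 10 genes, beside 57.3% of all protein-coding genes, or 56.4% when both ends were used for every gene. The strand was given for MUC1, MUC2, MUC4, MUC13 and MUC17, and 3 of these 5 had such a summit, beside 60.1% of all genes with a strand. For MUC5AC, MUC5B, TFF1, TFF2 and TFF3 both ends were used, and 3 of the 5 had one, beside 46.8% of other genes treated this way. At MUC5B that summit lay past the 3′ end and not at the start, as given below. The 7 summits concerned had folds from 2.66 to 8.38 with a median of 5.21, below the median of 7.20 over all 11672 peaks near a coding start or end.

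The promoter sequences of the genes whose start region was touched by a peak are shown because they give the DNA under, or at the edge of, the Myc signal. They are RefSeq sequences of GRCh38.p14, from 250 bases before the start to 50 after it, on the strand of the gene. Capitals mark the general E-box form CANNTG, read on both strands. MUC13 lies on the minus strand at chr3:124934702-124935001, MUC1 on the minus strand at chr1:155192866-155193165 and MUC2 on the plus strand at chr11:1074624-1074923.
MUC13: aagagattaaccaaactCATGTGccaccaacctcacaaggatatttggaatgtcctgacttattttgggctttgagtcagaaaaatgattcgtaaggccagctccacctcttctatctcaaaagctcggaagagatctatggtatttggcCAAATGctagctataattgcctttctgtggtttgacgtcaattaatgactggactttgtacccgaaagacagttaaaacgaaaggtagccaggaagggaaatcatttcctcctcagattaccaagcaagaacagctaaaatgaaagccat
MUC1: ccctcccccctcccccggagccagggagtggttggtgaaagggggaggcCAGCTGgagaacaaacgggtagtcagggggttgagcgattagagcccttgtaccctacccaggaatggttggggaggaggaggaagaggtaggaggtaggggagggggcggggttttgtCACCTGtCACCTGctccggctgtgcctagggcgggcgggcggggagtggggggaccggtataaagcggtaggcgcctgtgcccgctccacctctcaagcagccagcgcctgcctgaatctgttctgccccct
MUC2: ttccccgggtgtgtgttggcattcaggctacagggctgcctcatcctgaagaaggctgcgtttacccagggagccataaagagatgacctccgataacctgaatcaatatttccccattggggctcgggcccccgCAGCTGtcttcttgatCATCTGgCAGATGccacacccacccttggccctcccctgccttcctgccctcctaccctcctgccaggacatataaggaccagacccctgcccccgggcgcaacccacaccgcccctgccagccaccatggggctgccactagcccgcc

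The peak at MUC13 covered all 300 bases of its window, that at MUC1 reached into 23 of them and that at MUC2 into 41. At MUC1 and MUC2 these were the first bases shown, so all capitals in these sequences lay outside the peak. None of the windows of MUC1, MUC2, MUC4, MUC13 and MUC17 held the canonical E-box CACGTG, which occurs in 8.34% of 22199 promoter windows of protein-coding genes. None held CACGCG or its reverse complement CGCGTG either (14.3% of windows). The form CANNTG was found in all 5, with 3 matches in MUC1, 3 in MUC2, 2 in MUC13 and 1 each in MUC4 and MUC17, and 65.1% of windows hold it. These counts describe letters in the window and not sites of binding.

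The promoter of MUC13 held CATGTG, a form of E-box related to the canonical one, starting 233 bp before the transcription start and 7 bp from the Myc summit. This motif, read as CACATG or CATGTG, is present in 8.93% of all promoter windows and in 6.69% of those with a summit inside. The same window held TGAGTCA, the letters of an AP-1 site, 178 bp before the start. The pattern TGANTCA was also found at MUC2 (TGAATCA, 151 bp before the start) and at MUC17 (TGACTCA, 93 bp before), and in 6.15% of all windows. At both MUC2 and MUC17 it lay outside any peak. No window held TGTTTAC, a forkhead factor motif, or its reverse complement GTAAACA, which 2.85% of windows hold.

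In base composition the MUC13 promoter was unlike most promoters that carried a summit. Its window was 41.0% G and C, while the median was 66.0% over the 2437 windows with a summit inside and 62.3% over all windows. Only 32 of these 2437 windows (1.31%) were as low in G and C as MUC13, beside 7.83% of all windows. The windows of the other 4 mucin genes had between 60.0% (MUC17) and 65.7% (MUC1).

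Among the gel-forming mucins, MUC2, MUC5AC and MUC5B lie side by side on chromosome 11, and Myc summits stood mostly in the flanks of these genes. Their joined windows of 219.9 kb held 16 distinct summits, or 7.28 per 100 kb (Poisson 95% interval 4.16 to 11.8). Windows of all protein-coding genes on chromosome 11 held 3.22 per 100 kb and those of all chromosomes 2.32. Intervals of densities, here and below, treat summits as independent. Summits could lie close together, as at 1072130, 1073637 and 1074551 before MUC2. The difference from 3.22 was not tested. Of these summits, 9 had folds below 4.11, the median of all peaks. Each gene had 1 summit inside it, and the other 13 lay before, between or past the genes.

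**Figure D2:**
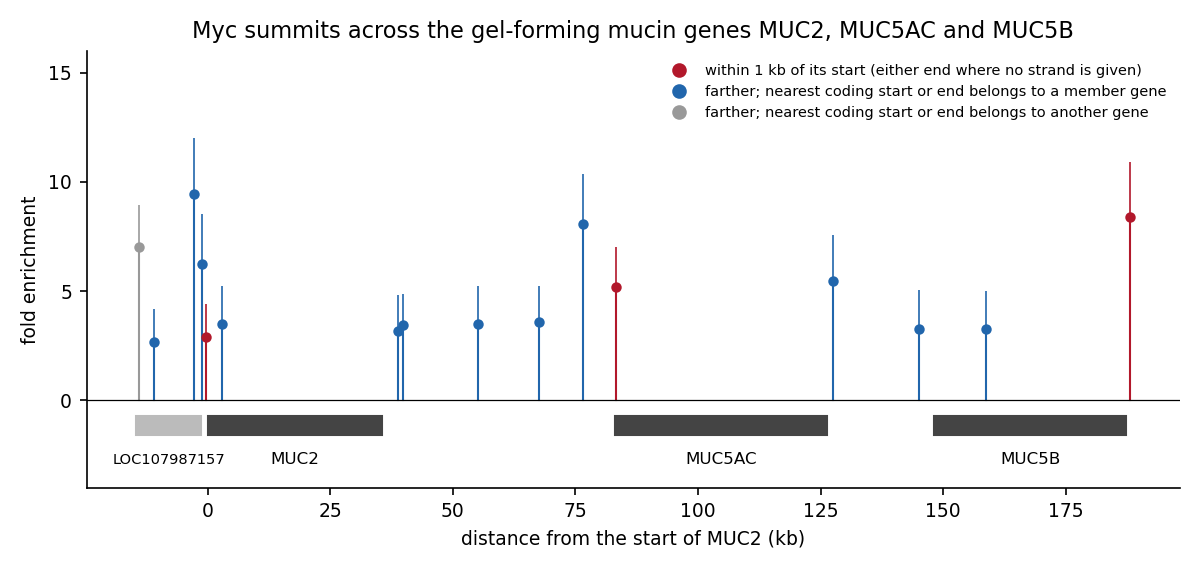
Fold enrichment with Poisson 95% interval (vertical axis) of the 16 Myc summits around MUC2, MUC5AC and MUC5B, against the distance from the start of MUC2 in kb (horizontal axis); dark bars are the mucin genes and the pale bar is the non-coding gene LOC107987157. The highest folds stand before MUC2 (9.43), before MUC5AC (8.08) and just past the far end of MUC5B (8.38).

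MUC2 (gene ID 4583; chromosome 11, 1074874 to 1110508, plus strand) had 9 summits in its window, the most of the 10 genes. The site closest to its start was weak. At 323 bp upstream (1074551), the fold was 2.91 (1.83 to 4.42), with 20 fragments against 6.22 in the control, and only 3.98% of peaks near a coding start or end had a lower value. Stronger sites lay further upstream. At 1237 bp upstream (1073637) the fold was 6.25 (4.47 to 8.52), and at 2744 bp upstream (1072130) it was 9.43 (7.28 to 12.0), with a pileup of 63. The interval of the farthest of these did not overlap that of the site nearest to the start. Among all peaks more than 1 kb from a coding start or end, 95.1% had a lower fold than 9.43.

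The strong sites upstream of MUC2 lay in or beside a non-coding gene. LOC107987157, a long non-coding RNA gene (1060332 to 1073434), ends before MUC2 begins. The summit at 1072130 lay inside it, 1304 bp from its higher-coordinate end, and that at 1073637 lay 203 bp beyond that end. A further summit 525 bp inside its lower-coordinate end, at 1060857, had a fold of 7.04 (5.47 to 8.93) and was 14017 bp from the start of MUC2. The coding gene LOC124902605 was nearer to that summit, at 11165 bp. The remaining summits in the MUC2 window had folds between 2.68 and 3.50, 1 of them inside the gene, 2847 bp past its start. Just outside the window, 20113 bp before MUC2, a stronger summit at 1054761 had 13.9 (11.4 to 16.8). It lay inside LOC124902605, its nearest coding gene, and inside the non-coding gene LINC02688. The summit just inside the other edge of the window, 19475 bp past MUC2, had 3.50 (2.25 to 5.22).

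MUC5AC (gene ID 4586; 1157953 to 1201138) had a summit 257 bp inside its lower-coordinate end and 4 others in its window. As background, MUC5AC and MUC5B are transcribed towards higher coordinates, so this is the 5′ end of the gene. That summit, at 1158210, had a fold of 5.21 (3.76 to 7.04), with 40 fragments against 6.88. The strongest, at 1151447, lay 6506 bp below the gene and had 8.08 (6.20 to 10.4). Its peak was 3736 bp wide, the widest of all 35, whose median width was 633 bp. The intervals of the folds at the 5′ end and at the site below it overlapped. At 1202358, 1220 bp beyond the other end, the fold was 5.48 (3.86 to 7.56). No summit was listed over the 44148 bp between 1158210 and 1202358, a stretch that holds nearly all of the gene.

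At MUC5B (gene ID 727897; 1223066 to 1262172), which encodes a gel-forming mucin best known from airways and salivary glands, the strong summit lay at the far end. At 1262962, 790 bp beyond the higher-coordinate end, the fold was 8.38 (6.33 to 10.9), with 54 fragments against 5.56. This summit is what placed MUC5B among the genes with a site near an end, and by the direction given above it lay past the 3′ end. The next coding gene on that side, TOLLIP, had its lower-coordinate end 11409 bp further on. Before the gene, a summit 3091 bp from the lower end had 3.28 (2.04 to 5.03), and 1 inside it had 3.26 (2.03 to 4.99). The interval at the far end did not overlap either of these.

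Among the membrane-bound mucins, MUC13, MUC1 and MUC17 had sites of medium to high fold close upstream of their starts, and MUC4 did not. At MUC13 (gene ID 56667; chromosome 3, 124905442 to 124934751, minus strand), the summit at 124934991 lay 240 bp upstream of the start. Its fold was 7.10 (5.25 to 9.39), with 47 fragments against 5.76, close to the median of 7.20 for peaks near coding starts or ends. A second, weak summit 980 bp into the gene had 2.66 (1.63 to 4.12), the lowest of all 35. Their intervals did not overlap.

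The highest fold in the window of MUC13 belonged to a neighbour. The summit at 124886806, with 11.6 (9.24 to 14.4), lay 559 bp from an annotated start of ITGB5, an integrin subunit gene, and one at 124887535, with 9.09 (6.89 to 11.8), lay 149 bp from another annotated start of that gene. Both were more than 17 kb from MUC13 and inside ITGB5. Counting only summits whose nearest coding start or end was MUC13 itself, the highest fold was 7.10.

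MUC1 (gene ID 4582; chromosome 1, 155185824 to 155192915, minus strand) had a pair of summits of like strength upstream. At 564 bp upstream (155193479) the fold was 6.40 (4.58 to 8.72), with 38 fragments against 5.09. At 1794 bp upstream (155194709) it was 6.24 (4.54 to 8.38), with 42 against 5.89, and the intervals overlapped almost fully. The second site lay 468 bp from MIR92B (155195177 to 155195272), a microRNA gene, and 288 bp from the non-coding gene THBS3-AS1, so it cannot be given to MUC1 alone. Inside MUC1, 713 bp from its lower-coordinate end, a weaker summit had 3.12 (1.91 to 4.83).

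The other 4 summits in the MUC1 window lay nearest to other genes of this gene-dense stretch. The highest, 8.36 (6.69 to 10.3) at 155208943, lay 235 bp from the start of THBS3 and 248 bp inside MTX1, which overlaps it. A further one at 155207176 had 4.76 and was 721 bp from an annotated start of THBS3. On the other side, 5.49 was found 127 bp inside KRTCAP2 and 7.49 at 5595 bp from the start of that gene. MUC1 shares its window with these sites, and its own highest fold was 6.40.

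MUC17 (gene ID 140453; chromosome 7, 101020081 to 101058859, plus strand), a mucin of the intestinal brush border, had the highest fold of all 10 genes. The summit at 101017385, 2696 bp upstream of its start, had a fold of 14.0 (11.3 to 17.2), with 90 fragments against 5.50. Of all peaks more than 1 kb from a coding start or end, 98.8% had a lower fold. The site lay inside the span of the neighbouring mucin gene MUC12, 1551 bp before its higher-coordinate end. It also lay inside the non-coding gene MUC12-AS1, 223 bp before the higher end of that gene, so it cannot be given to MUC17 alone. No summit lay inside MUC17, and the only other one in its window, 19119 bp beyond the gene, had 4.33 (2.88 to 6.27) and was nearest to TRIM56.

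MUC4 (gene ID 4585; chromosome 3, 195746771 to 195811929, minus strand), a large mucin that can bind the receptor ERBB2, had only weak sites although it is the longest of the 10 genes. The nearest summit to its start lay 3523 bp upstream, with a fold of 3.17 (2.09 to 4.62), and was 253 bp from the start of the predicted coding gene LOC124905352. A summit inside the gene, 7452 bp past the start, had 3.32 (2.16 to 4.92), and one 12460 bp upstream had 2.79 (1.66 to 4.43). All 3 intervals overlapped. A stronger site outside the window, 25738 bp from MUC4, stood at its neighbour MUC20 and is given with the other mucins.

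**Figure D3:**
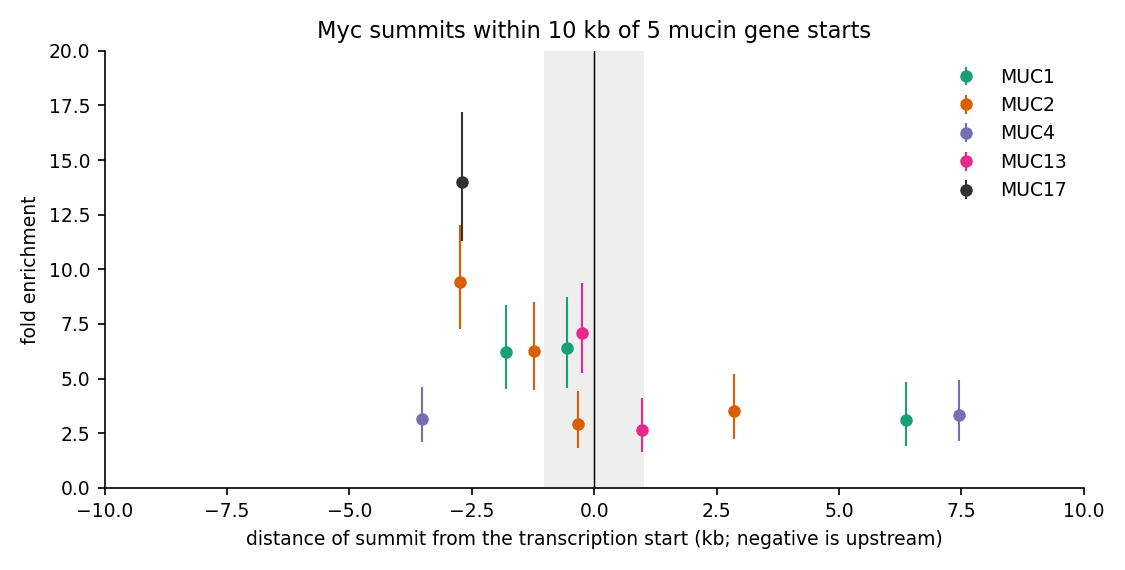
Fold enrichment with Poisson 95% interval (vertical axis) against distance from the transcription start in kb (horizontal axis; negative is upstream) for summits within 10 kb of the 5 mucin genes with a given strand; the grey band marks 1 kb on either side. The highest values, 14.0 at MUC17 and 9.43 at MUC2, lie 2696 and 2744 bp upstream, outside the band.

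The strongest upstream site had a higher fold than the strongest site inside the gene at MUC1, MUC2 and MUC13, and at MUC4 a slightly lower one. Between the start and 10 kb upstream the highest folds were 6.40 at MUC1, 9.43 at MUC2, 7.10 at MUC13 and 14.0 at MUC17, and at MUC4 it was 3.17. Inside the genes the highest were 3.12 at MUC1, 3.50 at MUC2, 2.66 at MUC13 and 3.32 at MUC4, with none at MUC17. At MUC2 and MUC13 the intervals of the pair did not overlap, and at MUC1 and MUC4 they did. At MUC1 and MUC2 the highest of several upstream summits was set against the 1 summit inside. Over all peaks the median fold was 7.20 within 1 kb of a coding start or end and 3.66 farther away. These classes go by distance and do not separate upstream sites from sites inside genes. The highest upstream sites of MUC2 and MUC17 fall in the farther class. Whether the mucin genes differ from other genes in this was not tested. Over all 10 genes, 6 had a summit inside the gene, beside 57.5% of protein-coding genes.

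The trefoil factor genes had the fewest sites. TFF1, TFF2 and TFF3 lie in a row on chromosome 21, and their windows held 1 summit between them, over 94.9 kb. This is 1.05 per 100 kb (0.0267 to 5.87), and the interval includes the 1.72 per 100 kb in coding gene windows of chromosome 21. Among coding genes of that chromosome 60.3% had a summit in the gene or within 20 kb.

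The single trefoil summit stood at TFF1 (gene ID 7031; 42362282 to 42366535), which encodes a peptide of the stomach mucosa that is also an oestrogen-responsive gene in breast cancer cells. At 42366682 it lay 147 bp beyond the higher-coordinate end, which as background is the 5′ end, since the gene is transcribed towards lower coordinates. Its fold was 3.88 (2.60 to 5.58), with 27 fragments against 6.22, and 14.4% of peaks near a coding start or end had a lower value. The same summit, 15688 bp from TFF2 (gene ID 7032; 42346357 to 42350994), was the only one within its window, so the value of TFF2 is that of TFF1.

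TFF3 (gene ID 7033; 42311667 to 42315409), the trefoil factor of intestinal goblet cells, had no summit within 20 kb. The nearest was again that at TFF1, 51273 bp away, and on its other side the nearest lay 78091 bp away, in the direction of ABCG1, with a fold of 14.1 (11.3 to 17.4). Between these summits no other was listed over 133 kb, a stretch that holds all 3 trefoil factor genes. Of all protein-coding genes, 14.3% had no summit in the gene or within 50 kb.

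Ordered by their highest fold within 20 kb, the genes stood as MUC17 (14.0), MUC13 (11.6), MUC2 (9.43), MUC5B (8.38), MUC1 (8.36), MUC5AC (8.08), TFF1 and TFF2 (3.88) and MUC4 (3.32). Intervals of neighbours in this order overlapped everywhere except between MUC5AC and TFF1. The values of MUC13 and MUC1 are those of ITGB5 and THBS3, as given above. That of MUC17 comes from a site inside MUC12 and MUC12-AS1, although the nearest coding start is that of MUC17. The median of the 9 values was 8.36, beside 8.80 over all protein-coding genes with a summit in their window.

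**Figure D4:**
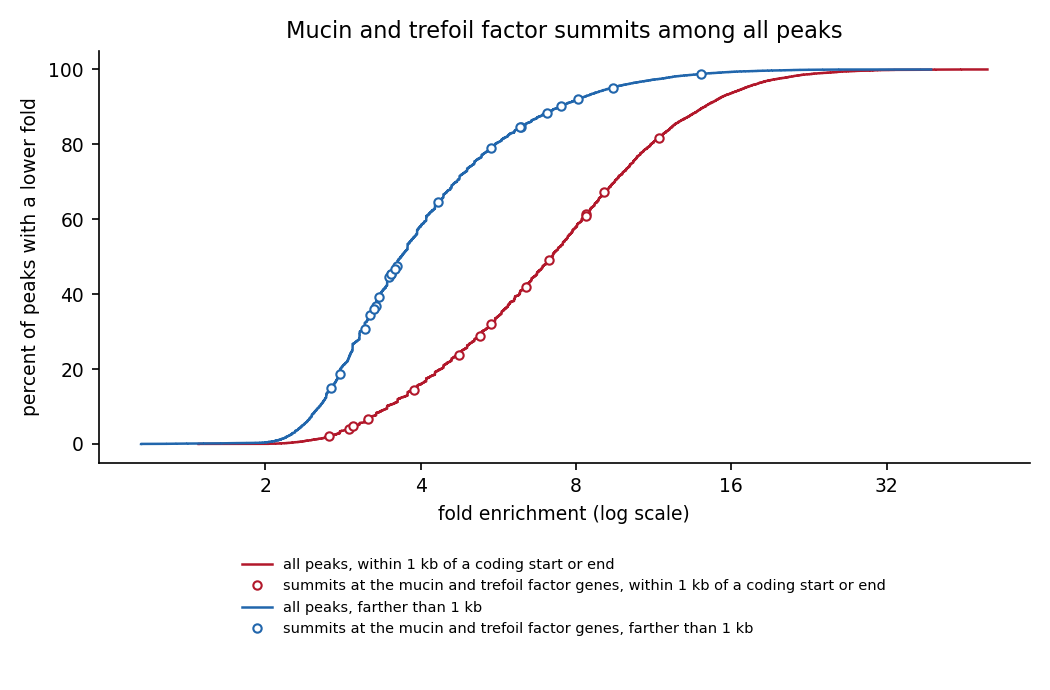
Percent of all peaks with a lower fold (vertical axis) against fold enrichment on a log scale (horizontal axis), for peaks within 1 kb of a coding start or end (red) and farther away (blue); open circles are the 35 summits at the mucin and trefoil factor genes, placed in their own class. The far summit of MUC17 stands at 98.8% of its class, and the summits near starts spread from 2.12% to 81.8%.

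Counted over all windows together, the 10 genes had 35 summits in 615 kb, or 5.69 per 100 kb (3.96 to 7.91), beside 2.32 over the windows of all protein-coding genes. Windows of coding genes held 2.52 per 100 kb on chromosome 1, 1.68 on chromosome 3 and 2.38 on chromosome 7, where the other mucin genes lie. Inside the genes alone the density was 2.21 per 100 kb, and the like density inside all protein-coding genes was not computed. Of the 35 summits, 11 lay nearest to a coding start or end of a gene outside the list, with a median fold of 5.49. The other 24 lay nearest to one of the 10 genes and had a median of 3.59. Of the 21 summits that lay farther than 1 kb from any coding start or end, 17 were among these 24. Those 17 had a median of 3.50, beside 3.66 over all peaks that far from a start or end. The lower median of the 24 was not tested and cannot be told apart from their distance from starts.

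Genes that work with mucins were read in the same way, in lists of textbook members. Those of mucin folding and O-glycosylation, the addition of sugar chains that makes up most of a mucin's mass, had a summit near the start in 16 of 26 (61.5%), beside 57.3% of all genes, and within 20 kb in 24 (92.3%), beside 79.7%. The highest folds were at ST3GAL1, a sialyltransferase gene on chromosome 8 (21.0, 18.6 to 23.7), at GALNT7, which encodes a transferase that adds GalNAc to peptides already carrying it (19.7, 16.3 to 23.5), and at XBP1, a factor of the secretory stress response (13.0, 10.6 to 15.7). The median over these 16 genes was 8.09, beside 7.89 over all genes with such a summit.

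Among regulators of secretory cell fate and mucin transcription, 10 of 15 had a summit near the start (66.7%), beside 57.3% of all genes. All 15 had one in the gene or within 20 kb, beside 79.7% of all genes. The highest was at CREB3L4 (21.2, 17.8 to 24.9), an ER-anchored factor whose start lies beside that of SLC39A1. That summit lay inside CREB3L4, but its nearest coding start or end, 580 bp away, was that of SLC39A1. It cannot be given to CREB3L4 alone. HNF4A, a master regulator of intestinal epithelium, had 8.98 (7.17 to 11.1), and the epithelial factor ELF3 had 7.75 (5.94 to 9.93). Named after their values were seen, the goblet cell factor SPDEF had 6.89 (4.99 to 9.29), and ATOH1, which commits cells to the secretory lineage, had 2.27 (1.50 to 3.30). Over the 10 genes with a summit near the start the median fold was 5.16, beside 7.89 over all such genes. Over the strongest summits within 20 kb of the 15 genes it was 8.98, beside 8.80.

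Goblet cell products other than mucins and trefoil factors had a summit near the start in 4 of 12 genes (33.3%), beside 57.3% of all genes, and in only 2 when a fold of 4 or more was asked for. Within 20 kb it was 9 of 12, beside 79.7% of all genes. Those with a summit near the start were AGR2, which helps mucins fold (6.54, 4.97 to 8.46), the kallikrein gene KLK1 (5.10, 3.52 to 7.18), AGR3 (3.65, 2.37 to 5.41) and BCAS1. The median of these 4 was 4.38, beside 7.89 over all genes with such a summit, and that of the strongest summits within 20 kb was 9.67, beside 8.80. The absorptive lineage gave a like count, with 5 of 15 enterocyte genes (33.3%) and a median of 4.43, and with 8 of 15 when 5 kb from the start was allowed. Within 20 kb it was 12 of 15 (80.0%), with a median of 5.32. The highest folds near starts were at VIL1, an actin bundler of microvilli (9.75, 7.52 to 12.4), at the peptidase gene DPP4 (6.40, 4.58 to 8.72) and at the keratin gene KRT20 (4.43, 3.24 to 5.91).

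Other mucin genes had a summit near the start in 2 of 13 (15.4%), the lowest share of the 5 lists at this distance and beside 57.3% of all genes. This count was 1 with 500 bp and 5 with 5 kb from the start. These were CD164, a small widely expressed sialomucin (20.2, 16.8 to 24.1), and MUC20 (7.97, 6.31 to 9.94), the neighbour of MUC4. MUC6, the gastric gel-forming mucin gene next to MUC2, had its nearest summit 3732 bp from an end, and its strongest within 20 kb was the one of 13.9 at 18043 bp, which also stood just outside the MUC2 window. For MUC12 the nearest summit lay 3237 bp from the start, with its strongest being the site of 14.0 upstream of MUC17. For MUC3A the nearest lay 7254 bp from the start, and its strongest within 20 kb had 7.83 (6.34 to 9.56). This strongest one lay inside MUC3A and was the same summit as that 3237 bp from the start of MUC12, its nearest coding start. In the gene or within 20 kb, 8 of the 13 had a summit (61.5%), beside 79.7% of all genes, and no set was tested against another.

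**Figure D5:**
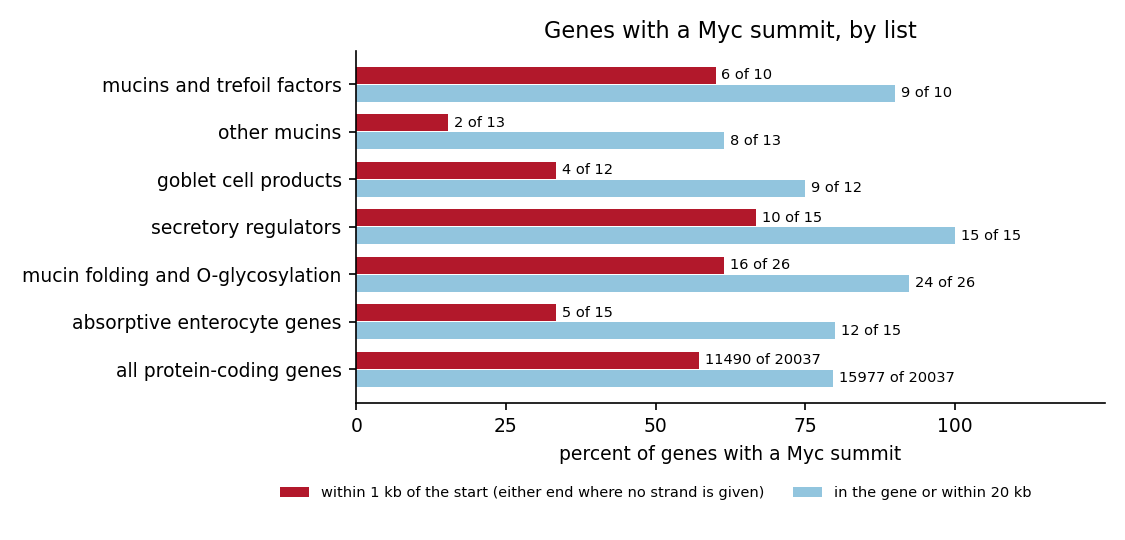
Percent of genes (horizontal axis) with a Myc summit near the start (red) or in the gene or within 20 kb (blue). Bars are given for the 10 genes, 5 lists of related genes and all protein-coding genes, with counts printed beside them. Where no strand is given, a summit near either end is counted as near the start. Near the start the lists run from 15.4% for other mucins to 66.7% for secretory regulators, around 57.3% for all genes.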

How the data were processed

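The authors deposited 1 peak list in the MACS2 narrowPeak format. On hg38, MACS2 2.1.2 and BWA 0.7.15 are named in the submitters' processing notes, beside SAMtools 1.5, Picard 2.19.0 and other tools. The control used, the joining of replicates, duplicate removal and settings were not given in the sources used here. Columns hold, per the file layout, the authors' fold enrichment (a ratio), −log10 p and −log10 q at the summit, and a deposited score of 10 times the −log10 q.

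The 1 peak outside the nuclear chromosomes was left out. Pileup and control level were solved from fold and −log10 p, with fold taken as pileup plus 1 over control level plus 1. This gave back the listed value within 0.001 for 47013 of 47016 peaks and 100% of 2000 simulated pileups. The intervals of folds were formed with the same additions. No library totals were used, so depth is given per summit.

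Gene spans came from RefSeq (GRCh38.p14, the same chromosome sequences as hg38), counted from 1. Starts and strands came from its promoter table, which matched 15843 of 20037 protein-coding genes and 5 of the 10. Exons and introns were not used. For the rest both ends were used. All 10 genes are named, each with the summits within 1 kb of its start or end and the 3 strongest others, and from each related list the 3 genes with the highest fold near the start. MUC6, MUC3A, MUC12 and MUC20 are always named. The genes and lists were chosen with earlier results of these data known, so no list was tested. Python 3.11.15, pandas 2.3.3 and scipy 1.17.1 were used.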

Additional observations from a re-analysis of the deposited data

How the results depend on the processing

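Of 102 recomputed values, 87 stayed within 1.5 times the reported count or within the 95% interval of the reported fold or density, and 15 did not. The number of genes with a summit in the window (9) and near the start, or near either end where no strand is given (6), were among the former under every alternative tried. The former ranged from 6 to 9 and the latter from 4 to 8. Using both ends for every gene was an alternative chosen after the data were seen.

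The number of summits moved most. It was 35 with a window of 20 kb, 21 with 5 kb, 59 with 50 kb and 6 inside the genes alone. It was 18 among peaks with a fold of 4 or more and 23 among summits nearest to the very gene, the last added after the data were seen. The density fell from 5.69 to 2.21 per 100 kb inside the genes. The highest fold fell to 6.40 at MUC1 and to 7.10 at MUC13 when only summits nearest to a listed gene, or to the gene itself, were kept. It rose to 13.9 at MUC2 when the peak interval decided in place of the summit. Near starts, other mucins numbered 1 with 500 bp and 5 with 5 kb in place of 2, enterocyte genes 8 with 5 kb in place of 5, and goblet cell products 2 with a fold of 4 or more in place of 4.

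No paired analysis was possible because the list gives 1 value per peak and none per library. For the same reason no library could be left out in turn. At pileups of 16 to 27 fragments, as at TFF1 and MUC4, the upper interval bound reaches 1.4 to 1.6 times the fold, so smaller differences were not detectable at this depth.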

Other observations

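Several goblet and secretory genes without a summit near the start had a strong one further off, named here after their values were seen. At SPINK4, a goblet cell peptide gene, the strongest summit within 20 kb lay 10410 bp before the gene, with a fold of 11.9 (9.60 to 14.6), and SPINK4 was the nearest coding gene. At CDX2, the intestinal homeobox factor gene, a summit 217 bp beyond the lower end had 17.2 (14.9 to 19.7), while the nearest to its start lay 3423 bp away. At HES1, which acts against secretory fate, a summit 3211 bp from the gene had 14.9 (12.2 to 18.0). For FCGBP, a mucus protein gene, the strongest summit in its window, 13.0 (10.7 to 15.7), lay 133 bp from a start of FBL, the fibrillarin gene. That summit was 17077 bp from FCGBP, so by distance its value belongs to FBL.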
